A study of Homo sapiens with 2 samples.

Results

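The ZNF genes, named for the zinc finger, were described in a pair of human ovarian carcinoma lines that differ in BRCA1. Members were the rows of the authors' table of differential genes whose name begins with ZNF and a digit. Rows on chromosome 18, on chromosome 9 below position 80000000 and on chromosome 12 below position 21000000 were left out, which removed 2 of 41. The 39 members are part of 1806 listed genes, with 27 on chromosome 19 and 12 elsewhere. UWB carries the genotype label BRCA1 Knockout and the cell line label UWB1.289, an established line of serous ovarian carcinoma. UWBBRCA carries the genotype label WT and the cell line label UWABRCA1. Both were untreated and grown in the same medium, and the labels give 1 sample for each, so that a difference between the lines rests on 1 line of each kind. Total RNA depleted of ribosomal RNA was sequenced as strand-specific libraries. The level used is FPKM, fragments scaled to transcript length and library size. The authors deposited 1 value per line without its spread, read here as a mean.

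Most human ZNF proteins carry C2H2 zinc fingers, short loops held by a zinc ion that line up in tandem to read a DNA sequence. Many also carry a KRAB domain, which recruits the corepressor TRIM28 (KAP1) and through it the histone methyltransferase SETDB1, and such proteins are known for silencing transposable elements. Their genes arose by repeated duplication and lie in clusters, most of them on chromosome 19. Promoters of several chromosome 19 members are known to be methylated in carcinomas. Not every ZNF protein belongs to this class: some have few fingers of another type and other functions.

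ZNF genes of chromosome 19 were mostly lower in UWB than in UWBBRCA, and those elsewhere went both ways. Of the 27 on chromosome 19, 4 were higher in UWB and 23 lower, and of the 12 elsewhere 7 were higher and 5 lower. Together 11 of 39 were higher and 28 lower, which is 28.2% higher and 71.8% lower, against 53.5% higher and 46.5% lower among all listed genes. The median level of the 27 was 2.24 FPKM in UWB and 5.35 FPKM in UWBBRCA, and that of the 12 was 3.39 FPKM in UWB and 3.10 FPKM in UWBBRCA. Each gene's difference is given below as the log2 ratio of FPKM + 1, UWB over UWBBRCA, which understates the change of low genes. On that scale the median was -0.95 on chromosome 19 and 0.80 elsewhere, -0.83 over all members and 0.21 over the other 1767 listed genes. With equal totals the median elsewhere was 0.45. With UWB scaled down by the median ratio of listed genes that reach 1 FPKM in each line, it turned sign to -0.0105, and that on chromosome 19 was -1.59. This scaling moves every gene down by the same factor, and ZNF114 and ZNF707, whose ratios were smallest among the higher members, came out lower.

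At least 2-fold differences on the scale of FPKM + 1 were counted next. In UWB 5 members were at least 2-fold higher, against a background of 25.3% of listed genes, and 13 were at least 2-fold lower, against 22.5%. These counts moved with scaling: with equal totals they were 1 higher and 21 lower, against 9.86% and 28.8% of listed genes, and after the median scaling 0 higher and 22 lower, against 3.49% and 30.5%. Of the 13 without scaling, 12 were on chromosome 19, which is 44.4% of the members there. By the fold in the authors' deposited table, 11 members were at least 2-fold higher, against 53.4% of listed genes, and 28 at least 2-fold lower, against 46%. Nearly every listed gene passes 2-fold by that measure, so these 2 counts only repeat the split by sign. Adjusted p in the authors' deposited table lay between 1.63e-08 for ZNF175 and 0.0482 for ZNF727. Being in the table already means having passed the authors' threshold, so these p-values describe how members were listed and say nothing of ZNF genes that have no row.

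**Figure D1:**
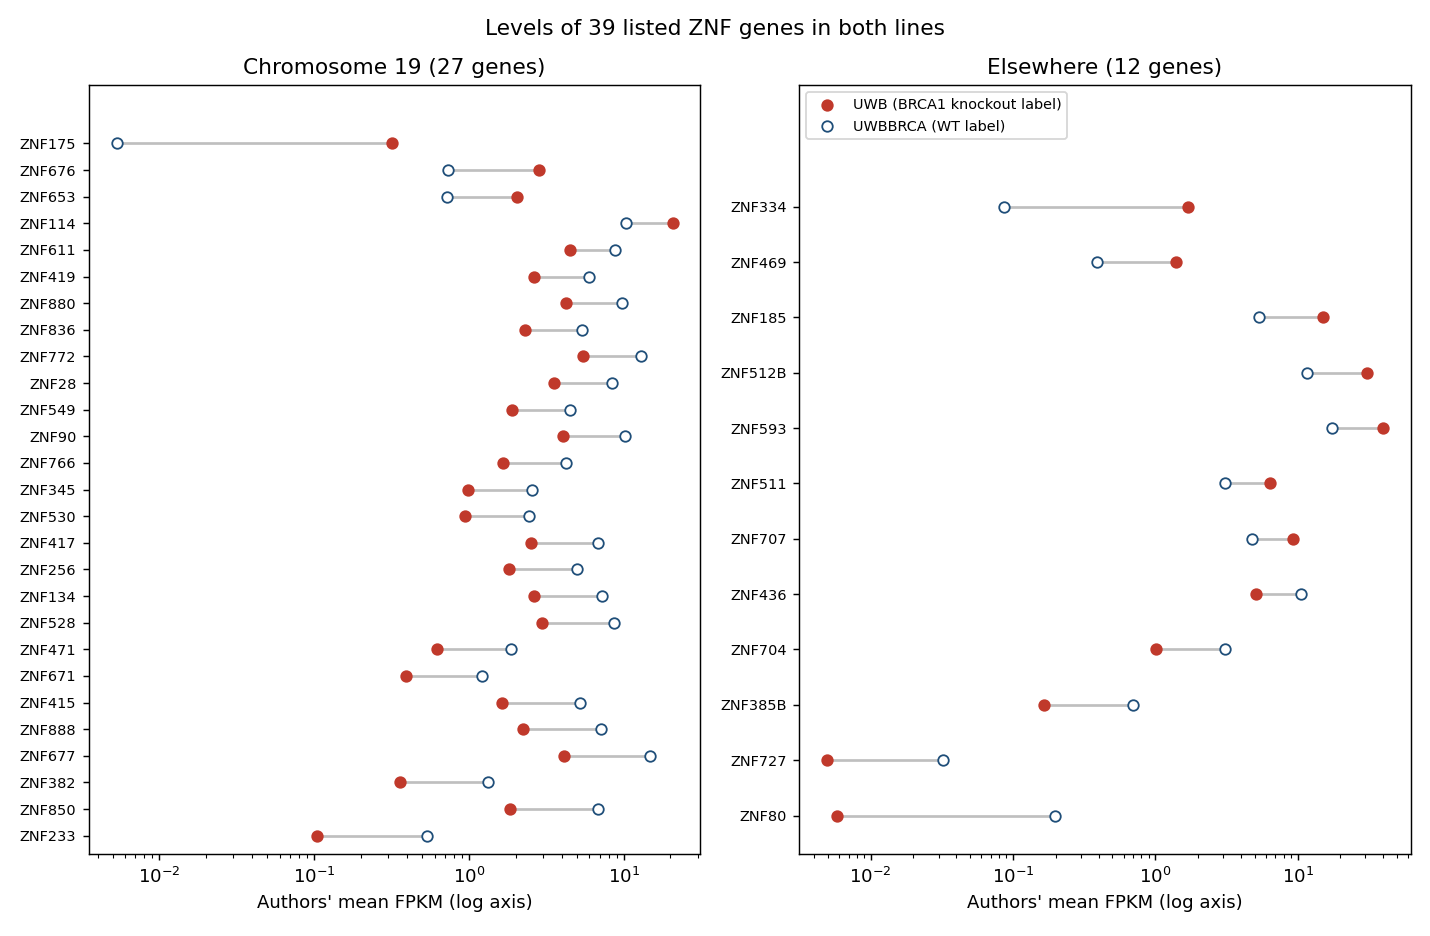
Deposited FPKM of the 39 members in UWB (filled) and UWBBRCA (open), read here as means, on a log axis. Genes are ordered by the ratio of the lines, with chromosome 19 on the left and other chromosomes on the right. Open points lie right of filled ones for 23 of 27 genes on chromosome 19 and for 5 of 12 elsewhere.

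The chromosome 19 members were not spread evenly. In GENCODE release 29, 249 protein-coding ZNF genes lie on chromosome 19 and 27 of them (10.8%) were members, against 12 of 253 (4.74%) elsewhere outside the left-out regions, and against 9.01% of all protein-coding genes with a row. Of the 1223 other protein-coding genes of chromosome 19, 130 (10.6%) had a row, near the share of its ZNF genes. Between 51 and 55 Mb, the proximal part of 19q13.4, 10 of 40 annotated ZNF genes were members, and between 55 and 59 Mb, the distal part, 9 of 59. The 249 and the 59 include ZNF304, which has a row under the name AC005261.1 and so is not counted as a member. In 19p13.2 (8 to 13 Mb) it was 1 of 40, in 19p12 (19 to 25 Mb) 2 of 37, in 19q13.1 (34 to 39 Mb) 3 of 31 and in 19q13.31 (43 to 46 Mb) 1 of 24. No ZNF gene of 19p13.3 (5 annotated) or of 19q13.2 (5 annotated) had a row, and ZNF114 lies outside these windows. ZNF genes with no row are not analysed here.

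Promoter sequence is shown for 5 members, 3 lower genes of both 19q13.4 clusters and the 2 members with the highest fold change in the authors' deposited table, because most members differed in the same direction and CpG sites are where DNA methylation is placed. The 250 bases before the start are from RefSeq (GRCh38.p14), on the strand of the gene, with each CG in capitals. ZNF677 lies at chr19:53254824-53255073 (minus), ZNF528 at chr19:52397599-52397848 (plus), ZNF134 at chr19:57613992-57614241 (plus), ZNF175 at chr19:51571033-51571282 (plus) and ZNF334 at chr20:46513560-46513809 (minus).
ZNF677: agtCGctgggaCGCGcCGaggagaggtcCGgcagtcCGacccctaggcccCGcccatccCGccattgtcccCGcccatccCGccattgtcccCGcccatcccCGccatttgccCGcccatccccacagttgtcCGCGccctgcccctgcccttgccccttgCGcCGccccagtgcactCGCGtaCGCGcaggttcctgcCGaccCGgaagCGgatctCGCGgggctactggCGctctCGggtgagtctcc
ZNF528: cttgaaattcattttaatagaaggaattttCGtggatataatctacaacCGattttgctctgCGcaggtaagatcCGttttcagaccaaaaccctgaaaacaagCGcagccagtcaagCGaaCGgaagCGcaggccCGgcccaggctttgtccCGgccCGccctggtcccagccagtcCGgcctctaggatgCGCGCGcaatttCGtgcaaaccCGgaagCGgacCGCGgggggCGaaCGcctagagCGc
ZNF134: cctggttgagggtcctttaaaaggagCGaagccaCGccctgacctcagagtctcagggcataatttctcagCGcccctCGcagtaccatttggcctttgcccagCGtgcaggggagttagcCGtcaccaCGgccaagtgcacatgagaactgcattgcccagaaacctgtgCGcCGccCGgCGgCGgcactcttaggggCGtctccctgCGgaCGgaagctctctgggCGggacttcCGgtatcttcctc
ZNF175: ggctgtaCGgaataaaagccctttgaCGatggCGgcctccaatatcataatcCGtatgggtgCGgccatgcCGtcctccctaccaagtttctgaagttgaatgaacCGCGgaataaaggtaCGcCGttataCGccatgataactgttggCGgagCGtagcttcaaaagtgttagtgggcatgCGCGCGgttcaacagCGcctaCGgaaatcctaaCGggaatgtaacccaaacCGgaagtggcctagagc
ZNF334: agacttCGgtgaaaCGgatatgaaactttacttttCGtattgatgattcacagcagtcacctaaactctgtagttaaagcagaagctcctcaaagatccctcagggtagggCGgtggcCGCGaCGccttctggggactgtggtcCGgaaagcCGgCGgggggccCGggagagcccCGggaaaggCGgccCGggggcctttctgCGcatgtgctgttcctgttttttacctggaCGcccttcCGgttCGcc

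The CG count in these 250 bases was 28 in ZNF677, 23 in ZNF528 and 17 in ZNF134, the lower genes, and 20 in ZNF175 and 18 in ZNF334, the higher ones. Across the full 300-base windows, 27 members had an entry. Their median CG count was 21 for the 21 lower members and 22 for the 6 higher ones. The median was 23 over 1329 listed genes and 14 over all 27305 genes of the table. At least 10 CG were present in 23 of the 27 member promoters (85.2%), in 77.6% of those of listed genes and in 56.0% of all. Lower and higher members therefore had a similar number of CG, and no methylation was measured.

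The proximal part of 19q13.4 held 9 lower members and 1 higher. ZNF677, reported as silenced by promoter methylation in lung cancer, had 4.13 FPKM in UWB and 14.7 FPKM in UWBBRCA, a log2 difference of -1.61, the furthest down of the 39. ZNF528 (chromosome 19, 52397849 to 52418412, plus strand) had 2.97 FPKM in UWB and 8.60 FPKM in UWBBRCA, and its neighbour ZNF880 had 4.25 FPKM in UWB and 9.73 FPKM in UWBBRCA. Both are tandem C2H2 genes with a match to the KRAB A-box pattern. ZNF888 had 2.24 FPKM in UWB and 7.14 FPKM in UWBBRCA. ZNF28 had 3.53 FPKM in UWB and 8.33 FPKM in UWBBRCA. ZNF611, reported to bind SVA retrotransposons, had 4.51 FPKM in UWB and 8.77 FPKM in UWBBRCA. These 3 follow each other in the order of listed genes, and UWB held 31.3% of the UWBBRCA level for ZNF888, 42.3% for ZNF28 and 51.4% for ZNF611. ZNF836 (2.29 FPKM in UWB, 5.35 FPKM in UWBBRCA), ZNF766 (1.66 FPKM in UWB, 4.26 FPKM in UWBBRCA) and ZNF415 (1.63 FPKM in UWB, 5.19 FPKM in UWBBRCA) complete the lower genes of the cluster.

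ZNF175 went against the other ZNF members of 19q13.4. It lies at the proximal edge of the cluster (chromosome 19, 51571283 to 51592510, plus strand) and had 0.319 FPKM in UWB and 0.00532 FPKM in UWBBRCA. The authors' deposited table gave it the highest log2 fold change of the members, 5.05 with an adjusted p of 1.63e-08, although both levels were under 1 FPKM. The log2 ratio of its FPKM values was 5.90, and this gap of 0.86 between the ratio and the authors' fold was the widest of the 39. KLK10 and VSIG10L, the listed genes just before ZNF175, were also higher in UWB, with log2 differences of 0.55 and 0.32. Both were under 1 FPKM in both lines.

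All 9 members of the distal 19q13.4 cluster were lower in UWB. ZNF772 had 5.49 FPKM in UWB and 12.9 FPKM in UWBBRCA. ZNF134 (chromosome 19, 57614233 to 57624724, plus strand) had 2.64 FPKM in UWB and 7.25 FPKM in UWBBRCA, and its authors' adjusted p of 0.000814 was the lowest of the cluster. ZNF417, known together with its near-copy ZNF587 for repressing human endogenous retroviruses, had 2.52 FPKM in UWB and 6.84 FPKM in UWBBRCA. Shared sequence limits this value: 37.7% of the 50-base words of the ZNF417 transcript occur in ZNF587 transcripts, so reads could be counted to either. ZNF419, the source of a known minor histocompatibility antigen, had 2.63 FPKM in UWB and 5.98 FPKM in UWBBRCA. ZNF256 had 1.81 FPKM in UWB and 4.95 FPKM in UWBBRCA, and ZNF549 had 1.89 FPKM in UWB and 4.49 FPKM in UWBBRCA. The remaining members of the cluster were at lower levels. ZNF530 had 0.947 FPKM in UWB and 2.46 FPKM in UWBBRCA. ZNF471, a gene reported as methylated in gastric cancer, had 0.622 FPKM in UWB and 1.87 FPKM in UWBBRCA. ZNF671, reported as methylated in urothelial cancer, had 0.391 FPKM in UWB and 1.22 FPKM in UWBBRCA.

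The lower genes of chromosome 19 differed by similar amounts. Across the 23, UWB held a median of 36.9% of the UWBBRCA level, between 19.5% for ZNF233 and 51.4% for ZNF611. In the authors' deposited table their log2 fold changes ran from -2.57 for ZNF382 to -1.18 for ZNF772, with quartiles of -1.67 and -1.34. For the 840 lower genes of the whole table the quartiles in the same authors' deposited table were -2.79 and -1.38. Nearly every listed gene was at least 2-fold by the authors' fold, so small folds are mostly absent from both sets. The 840 were chosen by FPKM, and their authors' log2 fold change reached 1.61, above 0.

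In the other clusters of chromosome 19 the members were few. All 3 members of 19q13.1 were lower in UWB: ZNF850 had 1.85 FPKM in UWB and 6.84 FPKM in UWBBRCA, with a log2 difference of -1.46. ZNF345 had 0.982 FPKM in UWB and 2.55 FPKM in UWBBRCA. ZNF382, a KRAB repressor reported as silenced by methylation in several carcinomas, had 0.358 FPKM in UWB and 1.32 FPKM in UWBBRCA. The 2 members of 19p12 went opposite ways. ZNF90 had 4.06 FPKM in UWB and 10.2 FPKM in UWBBRCA, while ZNF676 had 2.82 FPKM in UWB and 0.730 FPKM in UWBBRCA. ZNF653, a corepressor of the nuclear receptor SF-1 and the single member in 19p13.2, had 2.03 FPKM in UWB and 0.718 FPKM in UWBBRCA. ZNF114, between the clusters, had the highest UWB level of the members on the chromosome, with 20.6 FPKM in UWB and 10.3 FPKM in UWBBRCA. ZNF233, alone in 19q13.31, was under 1 FPKM in both lines.

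**Figure D2:**
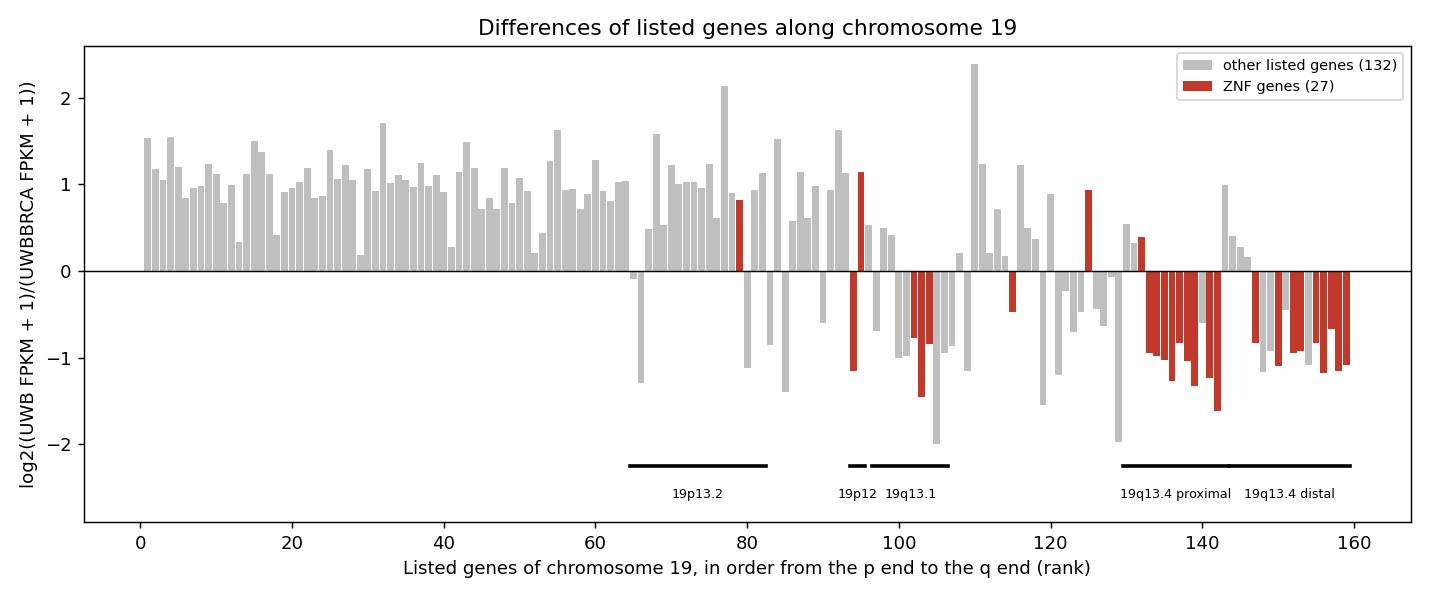
Log2 ratio of FPKM + 1, UWB over UWBBRCA, for the 159 listed genes of chromosome 19 in order along the chromosome, with ZNF genes in red, other genes in grey and 5 cluster windows marked by black bars. The 19 ZNF genes of 19q13.4 are below 0 except ZNF175, and the 55 grey genes of 19p13.3 at the left are all above 0.

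Other listed genes of chromosome 19 mostly went the other way. Of 132 such genes, 105 were higher in UWB and 27 lower, which is 20.5% lower, against 85.2% of the ZNF members on the chromosome. The sets differed in base composition as well: the median GC content of the longest transcript was 60.9% for these 132 genes and 41.9% for the ZNF members, and direction moved with GC content over the whole table. All 55 listed genes of 19p13.3, with a median GC content of 63.6%, were higher. Within 19q13.4, 18 of 19 ZNF members were lower, and of the 11 other listed genes there 6 were higher and 5 lower. Of these 5, 3 encode tandem C2H2 proteins without a ZNF name in the table and were chosen once their values had been seen. ZIK1 had 4.23 FPKM in UWB and 10.1 FPKM in UWBBRCA, and ZFP28 had 0.518 FPKM in UWB and 2.40 FPKM in UWBBRCA. The third is listed as AC005261.1, an ID that GENCODE pairs with ZNF304, at 2.40 FPKM in UWB and 5.46 FPKM in UWBBRCA. Of the 8 genes there with under 3 finger matches, 6 were higher and 2 lower in UWB, and their median GC content was 57.0%, against 42.4% for the ZNF members there.

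**Figure D3:**
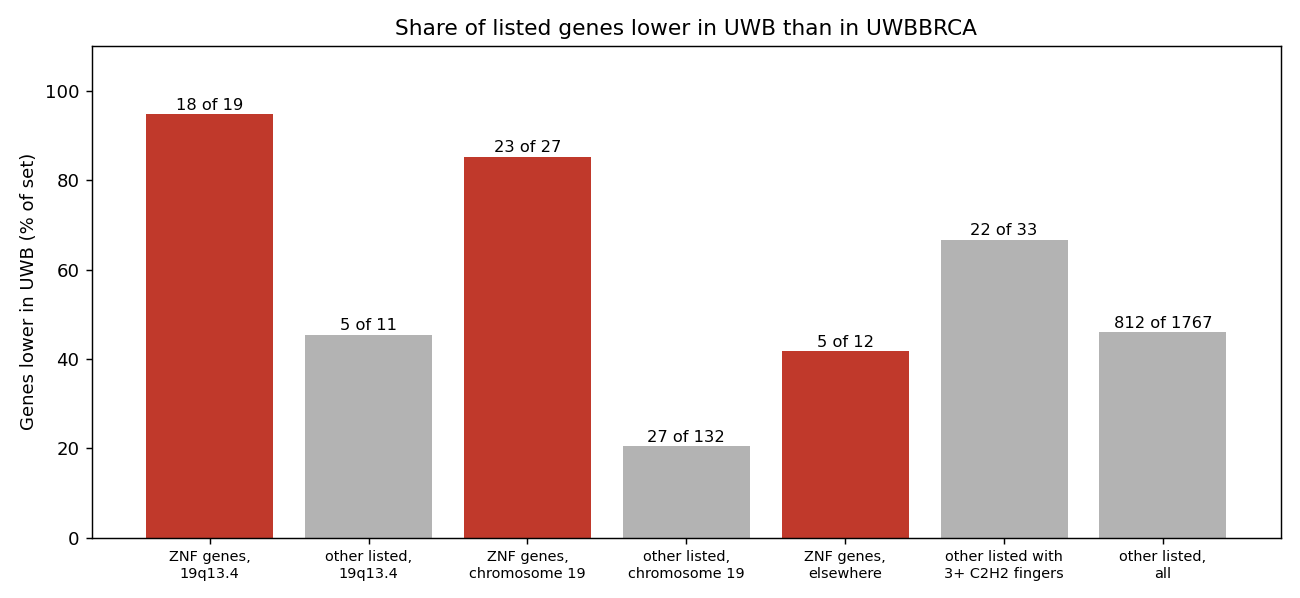
Percent of genes lower in UWB in each set, with counts above the bars, for ZNF members (red) and other listed genes (grey). The share was 94.7% for ZNF genes of 19q13.4, 85.2% for those of chromosome 19, and 41.7% for those elsewhere, with 812 of 1767 for all other listed genes.

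Away from chromosome 19, the higher members included proteins outside the KRAB class. ZNF593, whose yeast counterpart acts in export of the large ribosomal subunit, had 39.7 FPKM in UWB and 17.6 FPKM in UWBBRCA, the highest level of any member. ZNF512B, a partner of the NuRD chromatin complex, had 30.9 FPKM in UWB and 11.7 FPKM in UWBBRCA. ZNF185, a LIM domain protein of the actin cytoskeleton, had 15.0 FPKM in UWB and 5.38 FPKM in UWBBRCA. ZNF593 and ZNF185 had 0 C2H2 finger matches and ZNF512B had 4. ZNF334, which carries an array of 14 finger matches, had 1.69 FPKM in UWB and 0.0872 FPKM in UWBBRCA, and the authors' deposited table gave a log2 fold change of 3.85 with an adjusted p of 8.72e-07. ZNF469, the brittle cornea syndrome gene, had 1.39 FPKM in UWB and 0.387 FPKM in UWBBRCA. ZNF707 had 9.24 FPKM in UWB and 4.82 FPKM in UWBBRCA, and was the one higher member outside chromosome 19 with a match to the KRAB pattern. ZNF511 had 6.37 FPKM in UWB and 3.11 FPKM in UWBBRCA, and 23.5% of its 50-base words also occur in the readthrough gene ZNF511-PRAP1.

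Among the 5 lower members outside chromosome 19, 2 reached 1 FPKM in either line. ZNF436 had 5.08 FPKM in UWB and 10.6 FPKM in UWBBRCA, and ZNF704 had 1.02 FPKM in UWB and 3.09 FPKM in UWBBRCA. The others were near the floor of the scale. ZNF80, whose transcript is known to start in an endogenous retroviral repeat, had 0.00580 FPKM in UWB and 0.198 FPKM in UWBBRCA. The authors' deposited table gave ZNF80 a log2 fold change of -5.04, the lowest of the members, with an adjusted p of 0.000112. ZNF385B and ZNF727 were likewise under 1 FPKM in both lines. In all, 5 of the 39 members did not reach 1 FPKM in either line, and their levels in UWB ran between 0.00493 and 0.319 FPKM and in UWBBRCA between 0.00532 and 0.698 FPKM.

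The predicted proteins differed between chromosome 19 and elsewhere. The longest GENCODE reading frame of each member was searched for the C2H2 pattern and for a pattern of the KRAB A-box. The 27 chromosome 19 members had a median of 13 finger matches, from 3 in ZNF114 to 30 in ZNF850, and the 12 others a median of 5. A KRAB match was present in 22 of the 27 and in 2 of the 12. Among all annotated ZNF genes, with or without a row, it was present in 180 of 249 on chromosome 19. Elsewhere outside the left-out regions it was present in 89 of 253, so the whole family differs by location in the same direction. On chromosome 19, 3 of the 22 members with a KRAB match were higher and 19 lower, and of the 5 without a match 1 was higher and 4 lower. Elsewhere, 1 of the 2 with a match was higher and 1 lower, and of the 10 without a match 6 were higher and 4 lower. These counts are small, and the difference between members with and without a match was not tested. Over all listed genes 46.5% were lower. A protein with no match may still hold a KRAB domain of other letters.

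Zinc finger genes with other names also went both ways. Of the 33 other listed genes with 3 or more finger matches, which leave out ZNF names, 11 were higher in UWB and 22 lower (66.7%), against 46.5% lower over all listed genes. The median GC content of the 33 was 50.7%. Between 47.9% and 54.9% GC, 40.6% of listed genes other than ZNF members were lower. The part of GC content here was not tested. The 33 include GLIS3, BNC2, AEBP2 and ZBTB7C, which lie in the regions left out for ZNF members. Without them, a choice made after seeing the data, 10 of 29 were higher and 19 lower (65.5%). Of the 33, the 7 on chromosome 19 had 2 higher, KLF2 and KLF16, and 5 lower. The 26 elsewhere had 9 higher and 17 lower, and the 22 of these outside the left-out regions had 8 higher and 14 lower. Outside the ZNF names, 6 listed genes had a KRAB match, and all 6 were lower, with a median GC content of 43.9%. Among them were the 5 lower genes of chromosome 19 counted above. The other, AC004076.1, also lies on chromosome 19 and was near the floor, with 0 FPKM in UWB and 0.361 FPKM in UWBBRCA. It starts within the member ZNF772, and 7.04% of the sequence words of the ZNF772 transcript occur in it. Its direction may therefore not be independent of that member. In the list of zinc finger families by prefix (ZFP, ZBTB, ZSCAN, KLF, GLI and others), a row was found for 26 of 183 annotated genes. Of these 10 were higher and 16 lower, and their median difference was -0.44. Without GLIS3 and ZBTB7C, in the left-out regions, 9 were higher and 15 lower. EGR1, the immediate early factor, had 1.39 FPKM in UWB and 13.6 FPKM in UWBBRCA. ZBTB16, a BTB domain repressor also called PLZF, had 1.78 FPKM in UWB and 5.55 FPKM in UWBBRCA. ZSCAN23, a SCAN domain zinc finger gene, had 1.62 FPKM in UWB and 5.05 FPKM in UWBBRCA. Among its SCAN relatives, ZKSCAN8 had 4.50 FPKM in UWB and 12.2 FPKM in UWBBRCA, and ZSCAN31 had a log2 difference of -1.84. On chromosome 19, ZFP14 had 0.952 FPKM in UWB and 2.90 FPKM in UWBBRCA, and ZFP82 had 2.09 FPKM in UWB and 5.08 FPKM in UWBBRCA, both lower like the ZNF members of their cluster, 19q13.1. The lower genes also included GLIS3, at 2.61 FPKM in UWB and 5.65 FPKM in UWBBRCA. KLF2, a Krüppel-like factor, was among the higher, with 2.91 FPKM in UWB and 0.769 FPKM in UWBBRCA. KLF16 had 21.6 FPKM in UWB and 10.6 FPKM in UWBBRCA, and KLF15 had 1.51 FPKM in UWB and 0.361 FPKM in UWBBRCA. The other higher genes of the prefix list at 1 FPKM or more were ZFP41 (2.50 FPKM in UWB, 0.633 FPKM in UWBBRCA), GLI3, a Hedgehog pathway factor (3.20 FPKM in UWB, 2.14 FPKM in UWBBRCA), and ZFHX2 (1.17 FPKM in UWB, 0.572 FPKM in UWBBRCA).

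Of the 19 genes of the KRAB corepressor machinery, 2 had a row (10.5%), near the 9.01% of all protein-coding genes. Both were lower, against 46.5% of all listed genes. ATF7IP, the partner that stabilises SETDB1, had 9.22 FPKM in UWB and 23.3 FPKM in UWBBRCA, and HDAC2, a histone deacetylase, had 25.1 FPKM in UWB and 45.7 FPKM in UWBBRCA. ATF7IP lies on chromosome 12 in the region left out for ZNF members. Transcript GC content was 40.2% for ATF7IP and 38.2% for HDAC2. Between 33.0% and 42.1% GC, 86.0% of listed genes other than ZNF members were lower. Of 12 genes of DNA methylation, 2 had a row (16.7%). UHRF1, which guides maintenance methylation, had 21.4 FPKM in UWB and 12.6 FPKM in UWBBRCA, and TET1, which oxidises methylcytosine, was under 1 FPKM in both lines and lower in UWB. None of 22 imprinted genes, whose methylation KRAB zinc finger proteins are known to protect, had a row. TRIM28, SETDB1 and the DNA methyltransferases are among the list members with no row, and are not analysed here.

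Transcript GC content moved with direction over the whole table, and the members followed it. Lower ZNF members had a median GC of 41.9% in their longest GENCODE transcript, and higher members 56.3%. With the listed genes ordered by GC and cut into 5 bands of equal number, 15 of 17 members in the lowest band (33.0% to 42.1%) were lower in UWB, against 86.0% of the other listed genes there. In the next band (42.1% to 47.9%) 11 of 12 members were lower, against 75.5% of the others. In the third band 2 of 4 members were lower, against 40.6%, and in the upper 2 bands all 6 members were higher, where 80.2% and 89.5% of the other genes were higher. The median difference was -0.98 for members and -0.998 for other genes in the lowest band, and -0.94 for members and -0.79 for other genes in the second. It was 0.13 for members and 0.41 for other genes in the third. In the fourth, the single member had 0.84 and other genes 0.83, and in the fifth the medians were 0.82 for members and 0.96 for other genes. The part of GC content in the result was not tested.

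**Figure D4:**
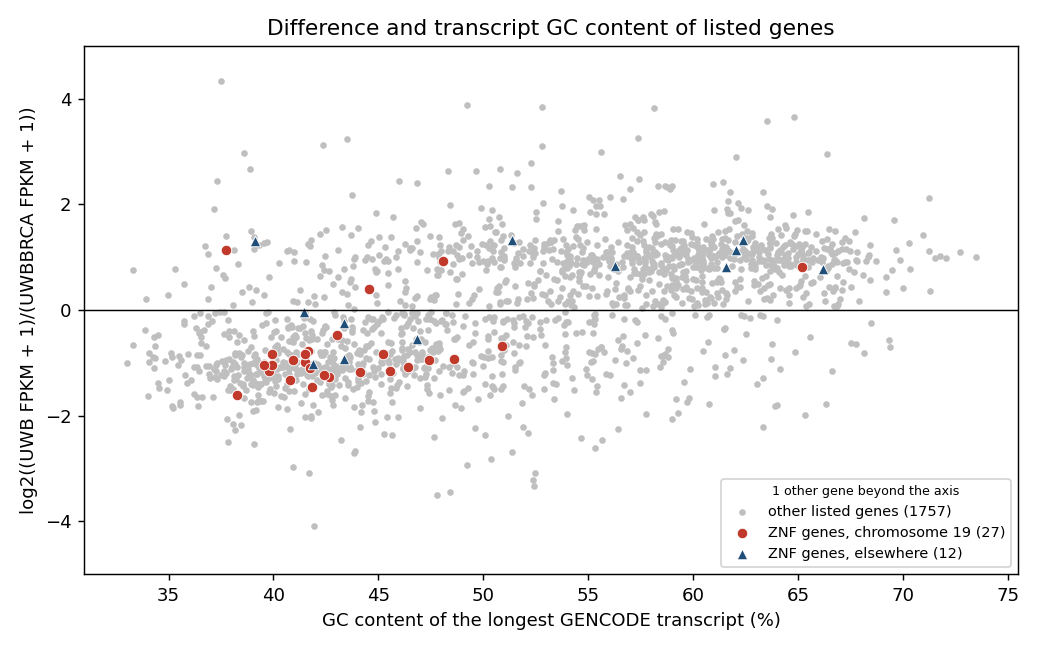
Log2 ratio of FPKM + 1, UWB over UWBBRCA, against GC content of the longest transcript in percent, for ZNF members of chromosome 19 (circles), ZNF members elsewhere (triangles) and 1757 other listed genes (grey). Genes under 47.9% GC are mostly below 0 and those above 54.9% mostly above it, members included.

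BRCA1 was measured as a check of the labels and had 5.63 FPKM in UWB and 22.0 FPKM in UWBBRCA. Of markers of other cell types, none of 5 leukocyte genes had a row, 3 of 6 fibroblast genes were lower in UWB and 3 of 5 endothelial genes higher. Of 8 markers of serous ovarian epithelium, MUC1 and MUC16 were higher and WT1 was lower. The other markers had no row. Over all protein-coding genes 9.01% had a row, and of listed genes 53.5% were higher and 46.5% lower. WT1 (0.0130 FPKM in UWB, 0.155 FPKM in UWBBRCA) and the fibroblast gene PDGFRA (0 FPKM in UWB, 0.0216 FPKM in UWBBRCA) were near the floor. The other listed markers reached 1 FPKM in either line. MFAP5, a fibroblast gene, lies in a region left out for ZNF members. The part of these markers in the ZNF differences was not tested. In bulk RNA, fewer cells that express a gene and less RNA of it per cell cannot be told apart.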

How the data were processed

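RNA of 2 samples, 1 per line, was sequenced. Per the submitters' processing notes the tools were HISAT2 and StringTie 1.3.3b and the build mm9. The table holds human Ensembl IDs, and all 39 members overlap their gene in GENCODE release 29 (GRCh38), so coordinates are read as GRCh38. The FPKM values were deposited by the authors as 1 value per line. All 78 member values were whole steps of the last decimal after multiplication by 3 (tolerance 0.02). Means of 3 values give this, so the values are read as means here. The authors also deposited a log2 fold change, a p-value and its adjusted value, per the file headers. Which test made them was not stated in any source used. That table lists selected genes, with adjusted p up to 0.0499, so read depth is unknown and unlisted genes are not analysed here.

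Differences are log2 of (FPKM + 1), UWB over UWBBRCA, with a 2-fold rule and no test, since each group is 1 sample. The members and lists were chosen with earlier results of these data known. Every member may be named. Those under 1 FPKM in both lines are mostly given by range, and of the zinc finger, corepressor and methylation lists the genes at 1 FPKM or more in either line are named, except for a result not reported here. Chromosome 19 windows are in whole Mb of gene start. Transcript GC, reading frames and shared 50-base words come from GENCODE, and promoters from RefSeq by symbol, first entry per gene (27 of 39 matched). The finger pattern was C, 2 to 4 residues, C, 12 residues, H, 3 or 4 residues, H. The KRAB pattern was rewritten once, after a first version missed members known to hold the domain and with the members' differences already in view, so its counts are a description only. Methods were tested on simulated data. Alternatives were other pseudocounts, scalings, filters, windows and the authors' fold. Python 3.11.15, numpy 2.4.6, pandas 2.3.3, biopython 1.88 and matplotlib 3.10.9 were used.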

Additional observations from a re-analysis of the deposited data

How the results depend on the processing

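The order of counts is higher, then lower, in UWB. The split of 11 higher and 28 lower members was the same with equal totals and with the authors' fold. A pseudocount cannot change a sign, so the same split with 0.1 and 0.01 says nothing of stability. It was 9 and 30 after centring on the median ratio, 6 and 19 among the 25 members at 1 FPKM or more in both lines, and 6 and 9 among the 15 with an authors' adjusted p of at most 0.01.

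The 2-fold counts of 5 and 13 were 9 and 26 with a pseudocount of 0.1, 10 and 27 with 0.01, 11 and 28 by the authors' deposited table, 1 and 21 with equal totals, 0 and 22 after centring, 3 and 13 at 1 FPKM or more in both lines, 3 and 6 at an adjusted p of at most 0.01, and 0 and 0 with a 4-fold rule. In log2 units, equal totals moved UWB by -0.43 and the median over all listed genes by -0.07, while centring moved UWB by -1.01 and that median by -0.21. Both are computed from listed genes alone. By the authors' fold nearly every listed gene is at least 2-fold, so that count repeats the split by sign.

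Medians are given for all members, chromosome 19 and elsewhere. They were -1.22, -1.31 and 0.97 with a pseudocount of 0.1, -1.33, -1.36 and 0.99 with 0.01, -1.04, -1.24 and 0.45 with equal totals, and -1.25, -1.59 and -0.0105 after centring, where the last turned sign. They were -0.93, -0.98 and 0.84 with a minimum of 1 FPKM in either line, -1.02, -1.09 and 0.84 with it in both, -0.77, -1.15 and 1.05 at an adjusted p of at most 0.01, and -1.37, -1.41 and 1.33 by the authors' deposited fold. Counting only the windows as chromosome 19 gave -0.97 there and 0.82 elsewhere. Including the 2 rows left out gave 0.37 elsewhere. Leaving out the 7 members with 10% or more shared 50-base words, chosen after seeing the data, gave -0.83 and -0.96 for all and chromosome 19. These 7 are ZNF417, ZNF511, ZNF611, ZNF653, ZNF727, ZNF836 and ZNF888. Except where the construction shows it, the cause of these shifts was not tested. No member name was that of an antisense gene or pseudogene. No paired analysis was possible because each line has 1 FPKM value per gene in the table. The values behind these presumed means are not analysed here, so none could be left out.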
